A study of Mus musculus with 36 samples.

Results

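The Hox and Cdx genes are the clustered Hox homeobox genes (Hoxa, Hoxb, Hoxc and Hoxd) and the 3 caudal genes Cdx1, Cdx2 and Cdx4. Members were chosen by gene symbol, with earlier results of these data known, and every matching symbol in the 3 deposited RNA-seq tables was kept. This gave 42 members (39 Hox and 3 Cdx) of the 19834 genes in the table of embryonic stem (ES) cells and embryoid bodies (EBs), 22 of 18256 in the table of pancreatic ductal adenocarcinoma (PDA) cells and 19 of 18758 in the table of pancreatic organoids.

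The series, in mouse, concerns RREB1, a zinc finger transcription factor, and TGF-β. Of its 36 samples, the 20 RNA-seq libraries were used and the other 16, which are chromatin libraries, were not analysed here. The main set was 8 libraries of E14 mouse ES cells labelled RREB1 WT or RREB1 KO, at day 0 or after 4 days as EBs, which are aggregates in which ES cells differentiate. There were 2 libraries in each of these 4 groups. The PDA set was 8 libraries of the line KSIC_806, also labelled RREB1 WT or KO and all marked S4, a mark that the labels do not explain. They received either 2.5 µM SB505124, an inhibitor of the TGF-β type I receptor, for 6 h, or 100 pM TGF-β for 1.5 h, with 2 libraries in each group, so ligand and inhibitor also differ in time. The organoid set was 1 library in each of 4 conditions of CIY organoids of pancreatic epithelial cells, with no doxycycline or with 1 µg/mL doxycycline given at plating, under the same inhibitor or TGF-β treatments. The labels do not say what doxycycline induced, whether libraries of a group came from separate cultures, or how many clones stand behind KO or WT. P-values therefore measure the spread between these libraries, and the effect of genotype and any further difference between the KO and WT lines cannot be told apart.

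Hox proteins are transcription factors that give cells along the head-to-tail axis their positional identity. The genes of each cluster are switched on in order in the embryo, from paralog group 1 at the 3′ end, used in the hindbrain, to group 13 at the 5′ end, used at the tail, and Polycomb complexes keep them silent in ES cells. Cdx proteins act upstream of central and posterior Hox genes in the posterior embryo, where Wnt, FGF and retinoic acid signals also act on them, and Cdx2 is in addition a master regulator of trophectoderm and of intestinal epithelium.

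In GRCm38.p6 (RefSeq annotation) the 11 Hoxa genes lie at chr6:52155367-52260880, the 10 Hoxb genes at chr11:96194316-96368254, the 9 Hoxc genes at chr15:102921131-103036856 and the 9 Hoxd genes at chr2:74668225-74765142. RefSeq promoters (the 250 bases before an annotated start) were read for 24 members, 26 promoters in all. The 4 below belong to the members on which the EB results turn: Cdx2, Hoxb1 and Hoxd9, which were highest in WT EBs, and Hoxd13, which was highest in KO cells at day 0. Sequences run 5′ to 3′ on the strand of the gene, with capitals for matches to any of 5 short motifs searched on both strands.

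Cdx2 (GRCm38.p6 chr5:147307250-147307499, minus strand): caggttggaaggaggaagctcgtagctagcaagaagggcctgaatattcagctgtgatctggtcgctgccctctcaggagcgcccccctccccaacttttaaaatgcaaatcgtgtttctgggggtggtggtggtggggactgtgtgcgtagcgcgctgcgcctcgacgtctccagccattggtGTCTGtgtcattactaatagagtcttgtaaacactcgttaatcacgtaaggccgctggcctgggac
Hoxb1 (GRCm38.p6 chr11:96365508-96365757, plus strand): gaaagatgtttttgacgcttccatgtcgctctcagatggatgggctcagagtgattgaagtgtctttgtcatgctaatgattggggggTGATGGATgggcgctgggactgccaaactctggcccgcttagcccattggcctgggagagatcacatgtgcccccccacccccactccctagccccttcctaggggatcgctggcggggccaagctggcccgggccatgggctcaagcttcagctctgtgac
Hoxd9 (GRCm38.p6 chr2:74697513-74697762, plus strand): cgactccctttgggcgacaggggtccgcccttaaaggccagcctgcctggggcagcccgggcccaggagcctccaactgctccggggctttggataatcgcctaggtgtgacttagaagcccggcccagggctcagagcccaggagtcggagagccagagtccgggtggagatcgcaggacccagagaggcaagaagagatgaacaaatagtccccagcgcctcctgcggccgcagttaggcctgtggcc
Hoxd13 (GRCm38.p6 chr2:74667975-74668224, plus strand): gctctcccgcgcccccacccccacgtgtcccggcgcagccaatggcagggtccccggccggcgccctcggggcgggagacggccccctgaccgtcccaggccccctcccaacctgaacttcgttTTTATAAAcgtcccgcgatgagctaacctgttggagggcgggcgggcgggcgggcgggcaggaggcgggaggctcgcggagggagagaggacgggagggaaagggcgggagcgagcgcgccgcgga

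The motifs were TTTAT (the core bound by Cdx proteins), TGATNNAT (a joint PBX and HOX site), AGGTCA (an element bound by retinoid receptors), CAGAC (a SMAD box) and TATAAA (the promoter element named the TATA box), of which the first and the last can overlap. The Hoxb1 promoter held TGATGGAT, a match to the PBX and HOX motif. In the Hoxd13 promoter the run TTTATAAA matched the Cdx core and the TATA box, each on both strands. The Cdx2 promoter held a CAGAC on the opposite strand, and none of these 5 strings was found in the Hoxd9 window. Over the 26 member promoters, TTTAT was present in 34.6% (37.3% of 32851 promoters of the same length), TGATNNAT in 15.4% (7.68%), AGGTCA in 23.1% (14.0%), CAGAC in 30.8% (42.2%) and TATAAA in 15.4% (12.4%). The median number of CpG dinucleotides was 12.5 per member promoter, against 6 over all promoters. These matches describe letters only.

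Values are the authors' normalized read counts per gene, which allow a gene to be compared between libraries of one table but not with another gene, since they are not divided by length. Recovered read totals were 19885697 to 29082712 per EB library, 20410770 to 44504338 per PDA library and 23914870 to 35808735 per organoid library, and 1 read was worth 0.85 to 1.21 normalized counts in the EB table. The targeted transcript was not lower in KO than in WT at day 0, and the genotypes overlapped at day 4. Rreb1 stood at 1085 and 1019 in WT day 0, 1482 and 1586 in WT day 4, 2642 and 2830 in KO day 0 and 1920.5 and 1512 in KO day 4. The part of Rreb1 that was deleted is not given, so this gene-level count does not check the labels. All 10 pluripotency markers, among them Pou5f1 and Nanog, were present at day 0 in both genotypes, at a summed 156395 to 186894. Bulk libraries cannot tell fewer cells of a type from less RNA per cell.

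**Figure D1:**
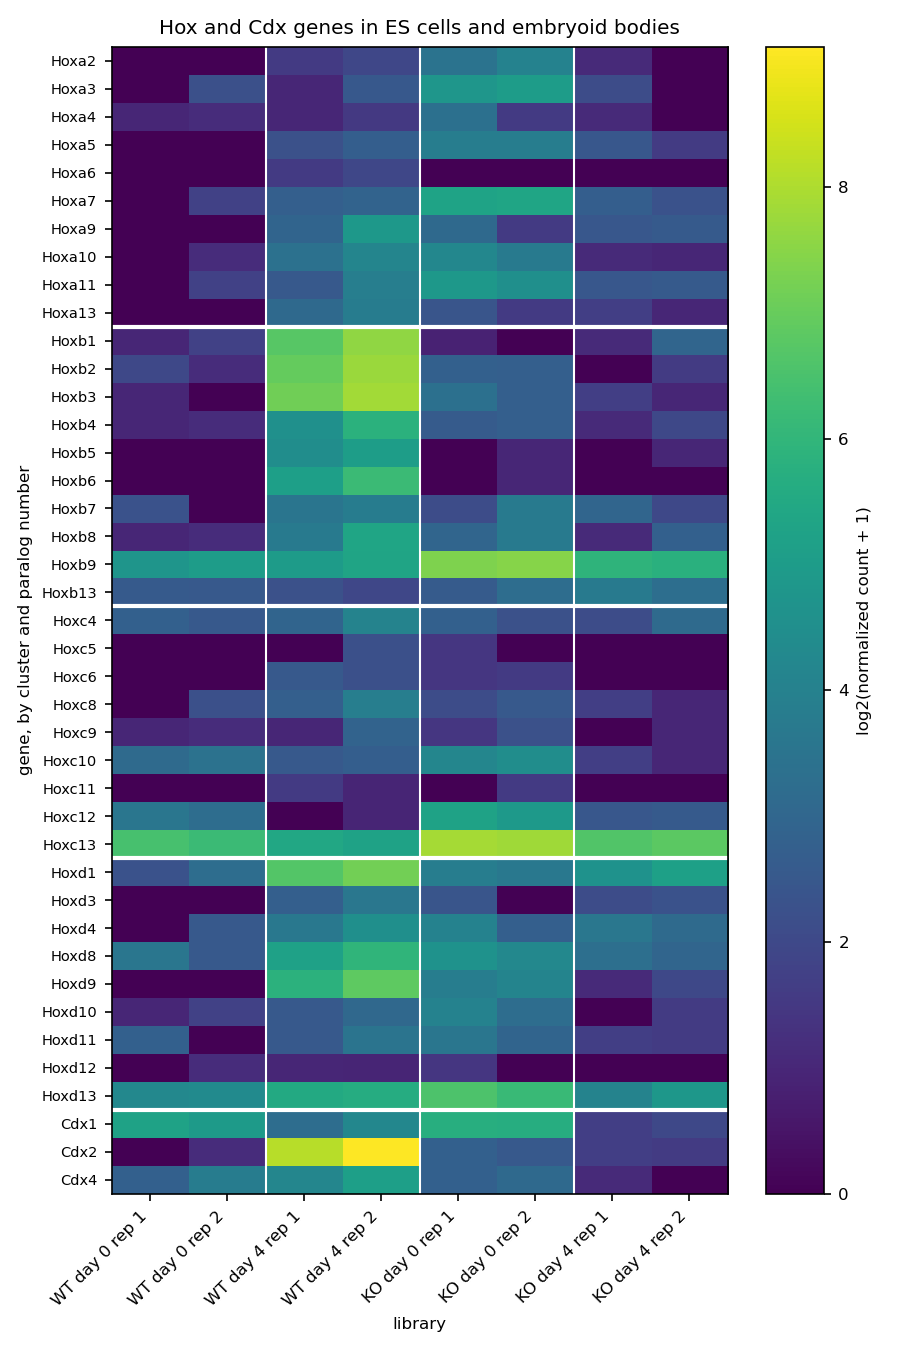
Heat map of log2(normalized count + 1) for 41 Hox and Cdx genes (rows, by cluster and paralog number) in the 8 ES cell and EB libraries (columns). The WT day 4 libraries are brightest for Hoxb1 to Hoxb6, Hoxd1, Hoxd9 and Cdx2, and the KO day 0 libraries for Hoxa7, Hoxb9, Hoxc13 and Hoxd13.

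The number of members at a value of at least 10 was 6 to 7 in WT day 0 libraries, 18 to 27 in WT day 4, 18 to 19 in KO day 0 and 5 to 7 in KO day 4. Differences were tested in limma on log2(value + 1) over the 15227 genes that reached 10 in 2 or more libraries of the 8. Of the 42 members, 28 passed this filter (25 Hox and 3 Cdx). Among these, 11 reached 10 in both libraries of WT day 4 alone, and 8 in both libraries of KO day 0 alone. Such a member had to differ between groups to be tested, so the counts of called members below describe these genes and support no statement about the family. Errors are standard errors on the log2(value + 1) scale, which understates the change of low genes.

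Cdx2 showed the largest change of any member. Its value was 0 and 1.21 in WT day 0, 284 and 553 in WT day 4, 5.94 and 4.78 in KO day 0, and 2.26 and 1.97 in KO day 4. Both WT EB libraries stood far above the other 6, with no overlap. From day 0 to day 4 Cdx2 rose in WT by 8.06 ± 0.48 (adjusted p = 4.17e-09), a ratio of 771 on 888 against 1 read, with a 95% counting interval of 138 to 30470. In KO cells the same interval of days gave no call for Cdx2 (adjusted p = 0.0818), and at day 4 KO was lower than WT (log2 difference -6.99 ± 0.48, adjusted p = 2.30e-08).

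Cdx4, which like Cdx2 is active in the posterior embryo, followed a smaller course, at 5.95 and 13.3 in WT day 0, 17.3 and 34.5 in WT day 4, 5.94 and 7.65 in KO day 0, and 1.13 and 0 in KO day 4. The WT day 4 libraries were the highest and the KO day 4 libraries the lowest. The WT change of 1.35 ± 0.56 passed narrowly (adjusted p = 0.0479) and was not called without the first WT day 0 library (0.83) or the second WT day 4 library (0.87), nor without either KO day 0 library (1.35 each). In KO cells Cdx4 fell by 2.41 on the log2 scale (adjusted p = 0.00196), on 15 reads against 1. Cdx1 ran the other way, with 36.7 and 30.3 in WT day 0, 8.65 and 17.7 in WT day 4, 50.9 and 49.7 in KO day 0, and 2.26 and 2.96 in KO day 4. It was low in EBs of both genotypes: it fell by 1.35 in WT (adjusted p = 0.00612) and by 3.84 in KO (adjusted p = 9.01e-07), both on the log2 scale. The WT fall of Cdx1 was not called without the first WT day 0 library (log2 change -1.22) or the first WT day 4 library (log2 change -0.88). At day 4 all 3 Cdx genes were lower in KO than in WT.

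Because Cdx2 also marks trophoblast, a list of trophoblast markers was read beside it. Of its 10 genes, 7 were tested, of which 6 rose and 1 fell from day 0 to day 4 in WT (32.3% and 30.8% of all genes tested). In WT the summed level went from 1922 to 2050 at day 0 to 5702 to 7354 at day 4. Most of that sum was Hand1 (3334 and 5264 in WT day 4), which mesoderm also expresses. Elf5 was at 9.61 and 8.39 and Prl3d1 at 0.96 and 0 in the same libraries. Plac1 went from 0 and 2.42 in WT day 0 to 152 and 240 in WT day 4. Gata3 went from 3.97 and 9.69 to 154 and 182. In KO day 4, Plac1 read 1.13 and 0.99 and Gata3 23.8 and 9.86. Ascl2 went the other way, at 244 and 193 in KO day 4 against 111 and 104 in WT day 4. Between genotypes at day 4, 1 of the 7 tested was called higher in KO and 4 lower (27.8% and 28.4% of all genes tested). The part of trophoblast cells in the Cdx2 value was not tested.

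In the Hoxb cluster, 8 of the 9 tested genes rose in WT EBs. All 8 reached 10 in both libraries of WT day 4 alone, so they passed the filter through that group. Hoxb1, a paralog group 1 gene of the hindbrain, read 0.99 and 2.42 in WT day 0, 106 and 194 in WT day 4, 0.85 and 0 in KO day 0, and 1.13 and 6.90 in KO day 4. Hoxb2 read 2.98 and 1.21, then 123 and 211 in WT, against 5.94 and 5.74, then 0 and 1.97 in KO. Hoxb3, whose annotated span overlaps Hoxb4, read 0.99 and 0, then 138 and 228 in WT, against 9.33 and 5.74, then 2.26 and 0.99 in KO. For all 3 genes both WT EB libraries lay above every other library. Their WT changes were 5.79 ± 0.64 for Hoxb1, 5.77 ± 0.56 for Hoxb2 and 6.98 ± 0.51 for Hoxb3, with adjusted p of at most 2.46e-06.

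The same shape, at lower values, held for Hoxb4, Hoxb5 and Hoxb6, which pattern the neck and the front of the trunk. Hoxb4 read 0.99 and 1.21, then 23.1 and 55.0 in WT, and 5.09 and 5.74, then 1.13 and 2.96 in KO. Hoxb5 and Hoxb6 had no read in either WT day 0 library, and reached 21.1 and 32.6 (Hoxb5) and 34.6 and 73.7 (Hoxb6) in WT EBs. In the KO libraries of both days neither gene was above 0.99. With the WT day 0 group set at a floor of 3 reads, the group mean in WT EBs was at least 16.4-fold higher for Hoxb5 and 33.1-fold for Hoxb6. Hoxb4 rose by 4.13 ± 0.56 (adjusted p = 1.62e-05).

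Hoxb7 and Hoxb8 rose less in WT. Hoxb8 went from 0.99 and 1.21 to 12.5 and 40.1, a change of 3.49 ± 0.66 (adjusted p = 0.000331), beside KO values of 6.79 and 12.4 at day 0 and 1.13 and 5.91 at day 4. Hoxb7 went from 3.97 and 0 to 10.6 and 13.1, with KO values of 3.39 and 12.4, then 6.79 and 2.96, so its KO and WT libraries overlapped. The Hoxb7 change of 2.52 ± 0.74 (adjusted p = 0.0087) was not called without the second WT day 0 library (1.36), the first WT day 4 library (2.66) or the second WT day 4 library (2.38). Hoxb9, a group 9 gene of the thorax, was instead present throughout, at 25.8 and 31.5 in WT day 0 and 30.8 and 39.2 in WT day 4, and its WT change was not called (adjusted p = 0.296). Hoxb13 stayed between 2.80 and 12.4 in all 8 libraries and was not tested.

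**Figure D2:**
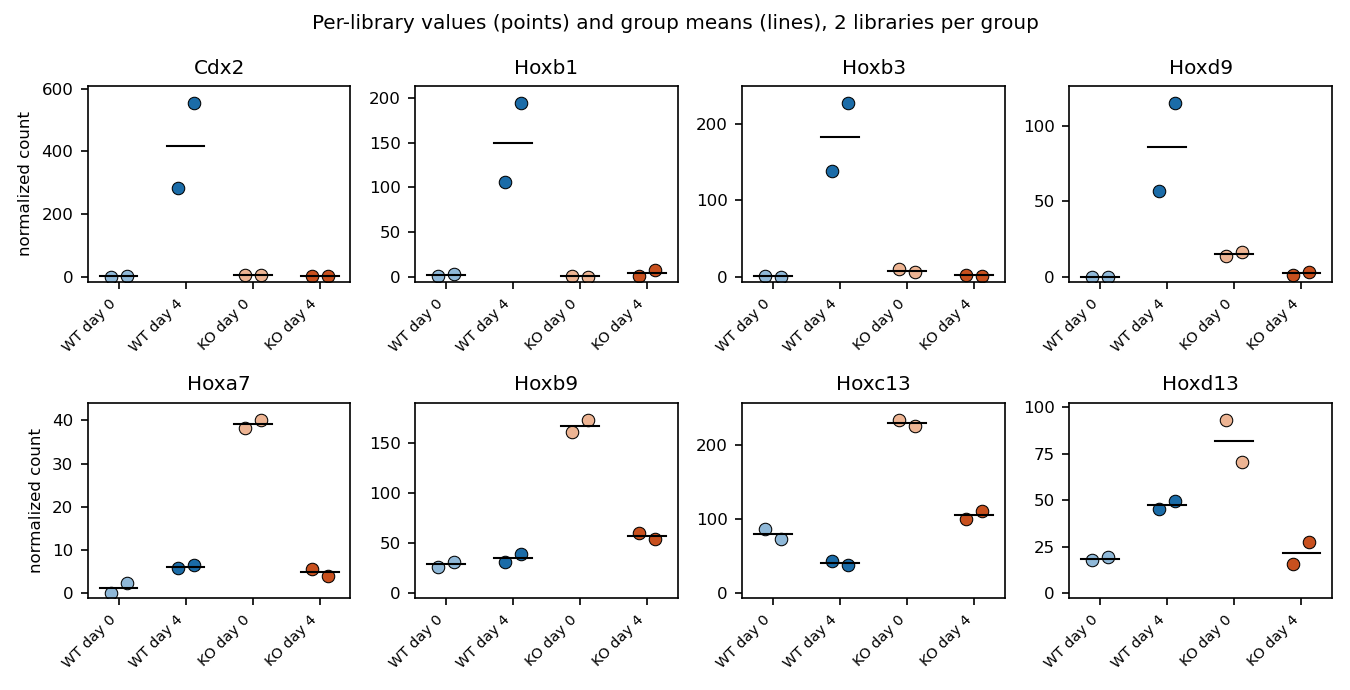
Normalized counts per library (points, 2 per group) and group means (lines) for 8 members. Cdx2, Hoxb1, Hoxb3 and Hoxd9 are highest in both WT day 4 libraries, and Hoxa7, Hoxb9, Hoxc13 and Hoxd13 in both KO day 0 libraries.

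In the Hoxd cluster, which patterns limbs and the caudal trunk, Hoxd9 had the largest WT change. It had no read in WT day 0 and read 56.7 and 115 in WT day 4, 13.6 and 16.3 in KO day 0, and 1.13 and 2.96 in KO day 4. All 4 groups were apart. By group means, Hoxd9 was at least 52.4-fold higher in WT EBs than at WT day 0, and at least 9.11-fold higher in KO than in WT at day 0. Hoxd1 read 3.97 and 8.48, then 101 and 142 in WT, and 13.6 and 11.5, then 23.8 and 35.5 in KO. It rose in both genotypes, by 4.14 ± 0.36 in WT (adjusted p = 2.32e-07) and by 1.16 ± 0.36 in KO (adjusted p = 0.0135). The KO rise was not called without the second KO day 0 library (1.04) or the second KO day 4 library (0.88).

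Hoxd8 read 10.9 and 4.84, then 36.5 and 61.5 in WT, and 23.8 and 18.2, then 9.05 and 6.90 in KO, and rose in WT by 2.54 ± 0.41 (adjusted p = 9.81e-05). Hoxd13, the most 5′ gene of the cluster and a gene of digits and the hindgut end, read 17.9 and 19.4, then 45.2 and 49.4 in WT, and 93.3 and 70.8, then 15.8 and 27.6 in KO. Its WT rise of 1.30 ± 0.29 passed (adjusted p = 0.00145), and its highest libraries were those of KO day 0. Hoxd4 read 0 and 4.84, then 11.5 and 22.4 in WT, and 15.3 and 5.74, then 11.3 and 7.88 in KO, so genotypes overlapped. Its WT change of 2.82 ± 0.71 (adjusted p = 0.00313) was not called without the first WT day 0 library (1.55) or the second WT day 4 library (2.37). Hoxd11, whose span overlaps Hoxd10, was not called in WT (5.95 and 0, then 4.81 and 10.3).

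The Hoxa genes described here, which pattern the axis and limbs, were low in WT cells. Hoxa10 read 0 and 1.21, then 9.61 and 16.8 in WT, and 17.8 and 12.4, then 1.13 and 0.99 in KO, with a WT rise of 3.21 ± 0.58 (adjusted p = 0.000236). A further 5 Hoxa genes stayed below 15 in every WT library: Hoxa2 reached 2.80, Hoxa3 4.66, Hoxa5 5.595, Hoxa7 6.53 and Hoxa11 14.0.

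At such low values the WT calls of 4 of these genes were unstable. Hoxa2 (1.74 ± 0.68, adjusted p = 0.0374) was not called without either WT day 0 library or either KO day 0 library (1.74 each), nor without the second WT day 4 library (1.55). Hoxa7 (1.95 ± 0.56, adjusted p = 0.00757) was not called without the first WT day 0 library (1.06) or the second WT day 4 library (1.87), and Hoxa11 (2.33 ± 0.62, adjusted p = 0.00451) without the same libraries (1.45 and 1.65). Hoxa5 (2.50 ± 0.58, adjusted p = 0.00169) lost its call under quantile normalization (1.35). Hoxa3, whose span overlaps Hoxa4, Hoxa5 and Hoxa6, was not called in WT (adjusted p = 0.527). Libraries were made without strand, so reads of overlapping genes cannot be told apart.

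Only 3 of the 9 Hoxc genes could be tested, all at the 5′ end. Hoxc13, a gene of hair, nail and tail, read 86.3 and 72.7 in WT day 0, 43.2 and 37.3 in WT day 4, 234 and 226 in KO day 0, and 99.6 and 111 in KO day 4. It fell from day 0 to day 4 in both genotypes, by 0.96 in WT (adjusted p = 0.000337) and by 1.12 in KO (adjusted p = 0.000104) on the log2 scale, and no group overlapped another. Hoxc12 read 10.9 and 8.48, then 0 and 0.93 in WT, and 37.3 and 28.7, then 4.53 and 4.93 in KO, and also fell in both. Hoxc10 read 7.94 and 9.69, then 4.81 and 5.595 in WT, with no call, and 17.0 and 21.0, then 2.26 and 0.99 in KO, where it fell by 2.97 on the log2 scale (adjusted p = 8.50e-05). Hoxc12 and Hoxc13 were the only tested members whose day 4 change was not called different between genotypes (adjusted p = 0.664 and 0.624, 95% intervals -1.11 to 1.86 and -0.71 to 0.39).

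Across members, 24 of the 28 tested were called between day 4 and day 0 in WT, 21 higher and 3 lower, where 63.1% of all genes tested were called (32.3% higher and 30.8% lower). Their median change was 2.51 (2.43 with genes at 0 in a group set at their floor), against a median near 0 for all genes. Of the 24 calls, 16 held in every alternative run. By cluster, 8 of 9 tested Hoxb genes rose (median change 4.77), 6 of 7 Hoxa (1.95), 5 of 6 Hoxd (2.68) and 0 of 3 Hoxc (-0.96). The 8 Hoxb genes passed the filter through WT day 4, so the clusters cannot be ranked by these counts. By position, the median was 4.13 over 9 tested genes of paralog groups 1 to 4, 2.54 over 7 of groups 5 to 8 and 1.30 over 9 of groups 9 to 13. Spearman's rho between paralog number and the WT change was -0.51 over the 25 tested Hox genes and -0.87 over the 9 Hoxb genes. These genes share libraries and neighbours, so rho is given as a description. The filter limit also holds for position: the 8 Hoxb genes had to be high in WT day 4. Of groups 9 to 13, Hoxa10, Hoxa11, Hoxc10 and Hoxc12 passed the filter through KO day 0 alone. The medians by position and rho therefore support no statement on an order along the clusters.

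**Figure D3:**
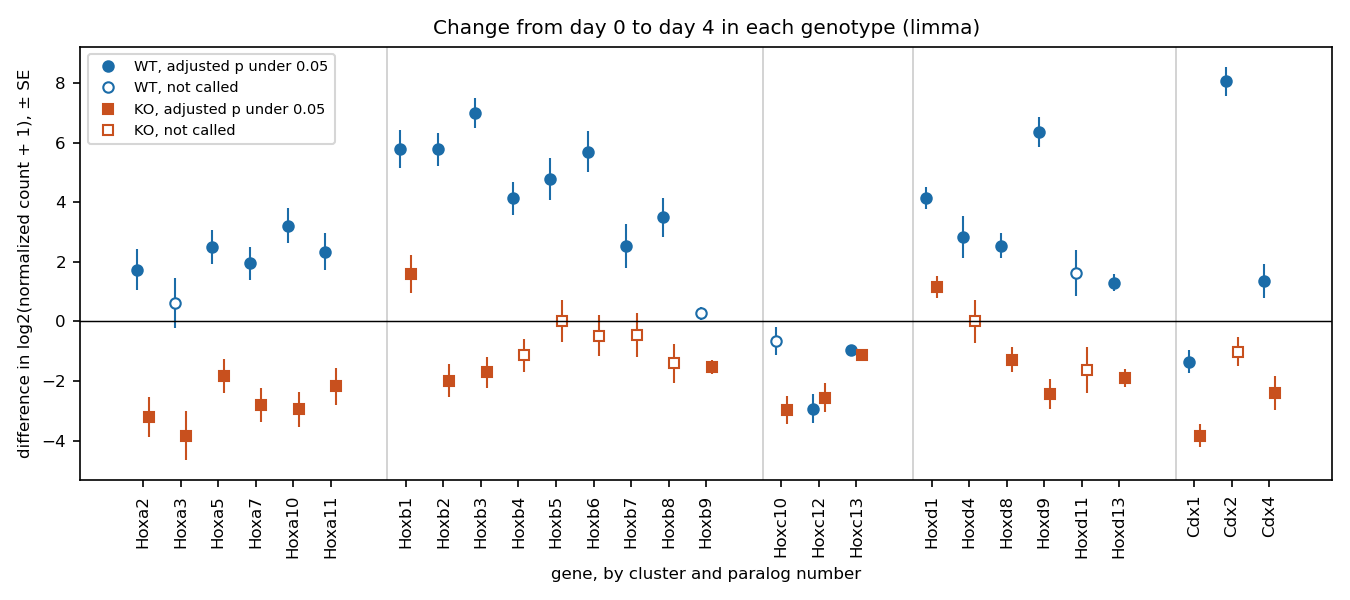
Change from day 0 to day 4 (difference in log2(normalized count + 1), ± SE) for 27 tested members in WT (circles) and KO (squares), with filled symbols for an adjusted p under 0.05. WT symbols lie above KO symbols for 26 of the 27 members, the exception being Hoxc12, and the widest gaps are at Cdx2, Hoxd9 and Hoxb3.

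The WT EB libraries differed from each other in how far the members had risen. Of the 23 members with a mean of at least 10 in that group, 22 were higher in the second library, with a median ratio of 1.71, against 1.01 over 14630 genes. Markers of primitive streak and mesoderm moved with them: all 10, T and Mesp1 among them, were higher in the second library, with a median ratio of 1.84. Neuroectoderm markers were higher there for 1 of 8, with a median ratio of 0.52, and endoderm markers for 5 of 10 (1.01). The members' median ratio of second to first library was 0.84 in WT day 0 (5 members), 0.97 in KO day 0 (18 members) and 1.01 in KO day 4 (6 members). The part of mesoderm content in the Hox and Cdx values was not tested.

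At day 0, before EBs were made, several members stood higher in KO than in WT cells. Hoxa7, with 0 and 2.42 in WT, read 38.2 and 40.2 in KO. Hoxa3 (0 and 3.63 in WT) read 26.3 and 31.6, Hoxa11 (0 and 2.42) read 27.99 and 22.0, and Hoxa2 and Hoxa5 (no read in WT) read 10.2 and 15.3, and 13.6 and 13.4. In none of these genes did a KO day 0 library overlap a WT day 0 library. With Hoxa10, these 6 Hoxa genes were called higher in KO, from 3.42 ± 0.58 for Hoxa10 (adjusted p = 0.000119) to 4.44 ± 0.56 for Hoxa7 (adjusted p = 7.63e-06). All 6 passed the filter through KO day 0 alone, so they had to be high there.

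Members present in every group allow the difference to be read without that filter effect. Hoxb9 went from 25.8 and 31.5 in WT to 161 and 173 in KO at day 0, a difference of 2.51 ± 0.22 (adjusted p = 2.27e-07). Hoxc13 was higher in KO by 1.53 ± 0.18 (adjusted p = 4.12e-06) and Hoxd13 by 2.07 ± 0.29 (adjusted p = 2.34e-05). These 3 genes come from 3 different clusters, and each had its highest 2 libraries in KO day 0. Within the Hoxb cluster the calls were mixed: Hoxb3 was called higher in KO by 2.56 ± 0.51 (adjusted p = 0.000481) and Hoxb4 by 1.61 ± 0.56 (adjusted p = 0.0192). Hoxb1, Hoxb2, Hoxb5 and Hoxb6 were not called at day 0 (adjusted p = 0.208, 0.0683, 0.56 and 0.548), and Hoxb1 and Hoxb6 had at most 1 read in a KO day 0 library.

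In all, 21 of the 28 tested members were called higher in KO at day 0 and 0 lower, where 67.2% of all genes tested were called (33.9% higher and 33.3% lower), and 12 of the 21 calls held in every alternative. Lost calls concerned low genes. Hoxb7 (1.78) was not called without the second WT day 0 library (0.63), the second KO day 0 library (0.98) or either WT day 4 library (1.78 each), and was 2.94 without the first WT day 0 library. Hoxd11 (1.87) was not called without the second WT day 0 library (0.47), either KO day 0 library (1.54 and 2.19) or either WT day 4 library (1.87 each), and was 3.27 without the first WT day 0 library. Hoxd4 (2.11) was not called without the first WT day 0 library (0.84) or the first KO day 0 library (1.48), and was 3.39 without the second WT day 0 library. Hoxd1 (0.97) was not called without the first WT day 0 library (0.51), either KO day 0 library (0.86 and 1.09) or the second WT day 4 library (0.97). Hoxb4 (1.61) was not called without the first WT day 0 library (1.53) or either KO day 0 library (1.68 and 1.54), Hoxb8 (2.28) without the second KO day 0 library (1.89), Hoxc12 (1.67) without the second WT day 0 library (1.50) or the first KO day 0 library (1.48), and Hoxd8 (1.38) without the second WT day 0 library (0.87) or the first KO day 0 library (1.20). Cdx2, higher by 2.09, lost its call with edgeR on recovered reads.

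**Figure D4:**
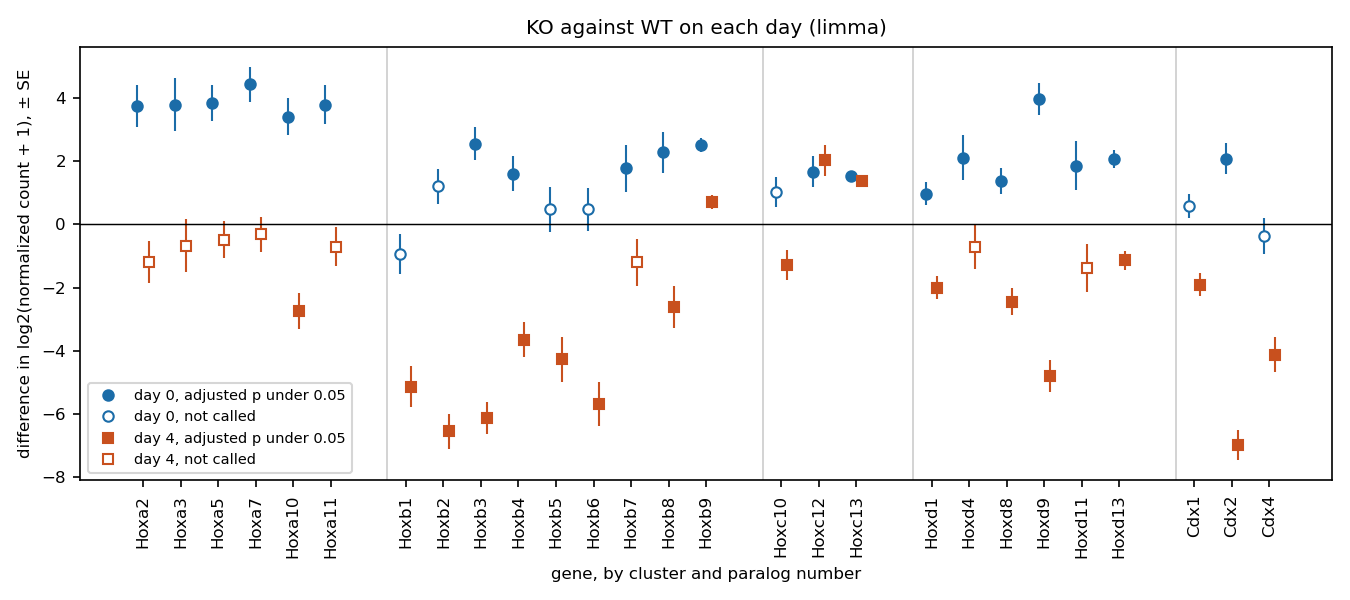
Difference between KO and WT (difference in log2(normalized count + 1), ± SE) for 27 tested members at day 0 (circles) and day 4 (squares), with filled symbols for an adjusted p under 0.05. Day 0 symbols lie above 0 for 25 members, and day 4 symbols lie below 0 for all but Hoxb9, Hoxc12 and Hoxc13.

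Of the 28 tested members, 10 were called higher in KO at day 0 and lower in KO at day 4. Taken singly, 33.9% of all genes tested were called higher in KO at day 0 and 28.4% lower at day 4. The share of all genes with both calls is not given here, and the filter favours members high in KO day 0 or WT day 4. Summed over the 39 Hox genes, values were 226 and 217 in WT day 0, 966 and 1585 in WT day 4, 1104 and 1049 in KO day 0, and 354 and 372 in KO day 4. In KO EBs, Hoxb9 (to 60.0 and 54.2) fell by 1.53 on the log2 scale (adjusted p = 3.96e-05) and Hoxd13 by 1.91 (adjusted p = 6.67e-05). All 7 tested Hoxa genes fell, Hoxa7 to 5.66 and 3.94 and Hoxa3 to 3.395 and 0. In this comparison 20 members were called, 2 higher (Hoxb1 and Hoxd1) and 18 lower, where 60.0% of genes tested were called (29.1% higher and 30.9% lower).

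Of those 20 calls, 13 held in every alternative. Hoxb1 (1.59) rested on few reads, 8 against 1: it was not called without the second KO day 0 library (1.15), the second KO day 4 library (0.65) or either WT day 4 library (1.59 each), and was 2.54 without the first KO day 4 library. Hoxa5 (log2 change -1.84) was not called without either KO day 0 library (-1.83 and -1.85) or the second KO day 4 library (-1.39), Hoxa11 (-2.17) without the first KO day 0 library (-2.01), and Hoxb2 (-1.99) without the first KO day 4 library (-1.20). Hoxb3 (-1.71) was not called without the first KO day 0 library (-1.40) or the second KO day 4 library (-1.35), and Hoxd8 (-1.29) without the same libraries (-1.10 and -1.12).

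At day 4, the widest gaps between genotypes were at the members that had risen in WT. The WT day 4 value enters both the rise and the gap. Of the genes below, Hoxb1, Hoxb2, Hoxb3, Hoxb5, Hoxb6 and Cdx4 passed the filter through WT day 4 alone. They had to be high there, so this order is a description only. KO was lower than WT at Hoxb2 (log2 difference -6.55 ± 0.56, adjusted p = 1.98e-07), where 2 reads stood against 354. By group means, Hoxb6 was at least 34.3-fold lower in KO. The log2 differences were -6.13 at Hoxb3, -5.14 at Hoxb1, -4.81 at Hoxd9, -4.28 at Hoxb5, -4.13 at Cdx4 and -2.44 at Hoxd8. The opposite order held for 3 genes, which were higher in KO EBs: Hoxc13 by 1.37 ± 0.18 (adjusted p = 1.73e-05), Hoxc12 by 2.04 ± 0.49 (adjusted p = 0.00257) and Hoxb9 by 0.70 ± 0.22 (adjusted p = 0.0153). Most Hoxa genes were at like low values in both genotypes and 5 of the 7 were not called.

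Between genotypes at day 4, 20 of the 28 members were called, 3 higher and 17 lower, where 56.2% of genes tested were called (27.8% higher and 28.4% lower), and 14 of the calls held in every alternative. Hoxb9 was not called without the first WT day 4 library (0.53) or the first KO day 4 library (0.63). Hoxb8 (-2.62) was not called without the second WT day 4 library (-1.81), and Hoxd13 (-1.14) without the first KO day 4 library (-0.75). Hoxc10 (-1.28) was not called without either WT day 4 library (-1.37 and -1.19) or the second KO day 4 library (-0.92), and Hoxc12 lost its call with DESeq2.

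The test of the difference itself, KO change minus WT change, called 26 of the 28 members, all of them lower in KO, where 55.7% of genes tested were called (27.1% higher and 28.6% lower). The largest differences were -9.08 ± 0.68 at Cdx2 (adjusted p = 1.12e-07), -8.80 ± 0.71 at Hoxd9 (adjusted p = 2.27e-07) and -8.69 ± 0.72 at Hoxb3 (adjusted p = 2.85e-07). Of members that passed the filter in all groups, Hoxd13 differed by -3.21 ± 0.42 (adjusted p = 1.83e-05) and Hoxb9 by -1.81 ± 0.32 (adjusted p = 0.000248). Hoxc13, which also passed in all groups, was not called (-0.16 ± 0.26, adjusted p = 0.624). Since this contrast combines both days, a high KO value at day 0 and a high WT value at day 4 both enter it. When genes were kept by a mean of 10 or more instead, 17 of the 19 members left were called. A mean can also be reached through a single high group, so this does not remove the filter effect. The share of all genes called under it is not given here.

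Markers of the cell types an EB can hold moved in the same contrasts, in which 32.3% of all genes tested rose in WT EBs and 28.4% were lower, 27.8% higher, in KO EBs than in WT EBs. All 10 primitive streak and mesoderm markers rose in WT EBs (median change 5.84) and 9 of the 10 were lower in KO EBs than in WT EBs. Their summed level was 237 to 252 in WT day 0, 6896 to 12468 in WT day 4, 349 to 372 in KO day 0 and 800 to 805 in KO day 4. Markers of extraembryonic and visceral endoderm rose for 10 of 10 in WT and were lower for 10 of 10 in KO EBs, and Ttr and Afp were at or near 0 in all KO libraries. Of 9 tested neuroectoderm markers, 7 were lower in KO EBs. Of 10 pluripotency markers, 8 were higher in KO than in WT EBs. The part of these cell types in the Hox and Cdx values was not tested.

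Of 17 tested genes among 18 posterior signals and caudal progenitor genes, 15 rose in WT EBs and 2 fell, and 14 were lower in KO EBs than in WT EBs (28.4% of all genes tested). Evx1, a posterior homeobox gene next to Hoxa13, read 1.98 and 0, then 404 and 769 in WT, and 3.39 and 2.87, then 2.26 and 5.91 in KO, so both WT EB libraries stood alone. T, the Brachyury factor of the primitive streak, read 6.95 and 8.48, then 907 and 1646 in WT, and 19.2 and 17.7 in KO day 4. Fgf8, a signal that maintains caudal progenitors, read 20.8 and 21.8, then 438 and 507 in WT, and 6.79 and 12.8 in KO day 4. Of 17 tested retinoid pathway genes, 10 rose and 4 fell in WT, beside 32.3% and 30.8% of all genes tested. The largest rise was that of Cyp26a1, the enzyme that breaks down retinoic acid, from 18.9 and 13.3 to 1102 and 1507, beside 26.0 and 28.6 in KO day 4.

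The TALE homeobox genes (Pbx, Meis and Pknox), whose proteins bind DNA together with Hox proteins, moved partly with the members. In WT EBs 7 of 9 rose and 2 fell (32.3% and 30.8% of all genes tested), and in KO EBs 7 of 9 were lower than in WT EBs (28.4%). Meis2 read 40.7 and 25.4, then 209 and 288 in WT, and 216 and 206, then 38.5 and 91.7 in KO. Its KO day 0 and WT day 4 libraries were both high. Pknox2 read 32.7 and 31.5, then 244 and 241 in WT, and 100.1 and 111, then 21.5 and 19.7 in KO.

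Among 31 genes of the Polycomb and Trithorax groups, which set the silent and active states of Hox clusters, 19 were higher and 7 lower in KO than in WT at day 0, beside 33.9% and 33.3% of all genes tested. Bmi1, a Polycomb subunit, read 157 and 182 in WT day 0 and 1070 and 1108 in KO day 0, then 408 and 423 in WT day 4 and 377 and 436 in KO day 4. Its difference at day 0 was 2.68 ± 0.11 (adjusted p = 1.80e-10). Ezh2, the main Polycomb histone methyltransferase in ES cells, read 5661 and 5764 in WT day 0 and 4960 and 5125 in KO day 0.

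Of 20 tested genes that flank the clusters, 4 rose and 8 fell in WT EBs (median change 0.01; 32.3% and 30.8% of all genes tested). At day 0, 10 were higher and 3 lower in KO than in WT (median difference 0.30; 33.9% and 33.3% of all genes tested). The antisense transcript Hoxa11os, whose locus overlaps Hoxa11, read 0 in both WT day 0 libraries, 8.65 and 11.2 in WT day 4, 14.4 and 7.65 in KO day 0, and 2.26 and 0.99 in KO day 4. Without strand, its reads and those of Hoxa11 cannot be told apart. Of the ParaHox genes other than Cdx, Pdx1 did not exceed 1.91 in any EB library.

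The 14 members that did not pass the filter in EBs were Hoxa4, Hoxa6, Hoxa9, Hoxa13, Hoxb13, Hoxc4, Hoxc5, Hoxc6, Hoxc8, Hoxc9, Hoxc11, Hoxd3, Hoxd10 and Hoxd12. None of them reached 10 in more than 1 library. That library was the second of WT day 4 for Hoxa9 (27.98), Hoxc4 (15.9), Hoxc8 (13.99), Hoxa13 (13.1) and Hoxd3 (11.2), the first of KO day 0 for Hoxd10 (15.3), and the first of KO day 4 for Hoxb13 (12.4). Just outside the filter were Hoxb13, with a next highest value of 8.87, and Hoxd10, with 8.60. The highest value was 9.33 for Hoxa4, 2.80 for Hoxa6, 1.92 for Hoxc11 and 1.70 for Hoxd12. Just inside the filter was Hoxd11, with 11.03 in the first KO day 0 library and 10.3 in the second WT day 4 library. The central Hoxc genes Hoxc5, Hoxc6 and Hoxc9 stayed below 7 everywhere.

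In PDA cells 4 members passed the same filter (13226 genes tested): Cdx2 and the 5′ Hoxa genes Hoxa9, Hoxa10 and Hoxa13. Hoxa10, a posterior gene of the reproductive tract, read 21.1 and 22.8 in WT with inhibitor, 26.2 and 31.5 in WT with TGF-β, 169 and 162 in KO with inhibitor, and 263 and 205 in KO with TGF-β. Hoxa13, the last gene of the cluster, read 0.92 and 2.74, then 4.92 and 4.63 in WT, and 36.2 and 38.5, then 49.8 and 53.6 in KO. Hoxa9 read 6.42 and 3.65, then 8.20 and 3.70 in WT, and 12.1 and 21.1, then 17.2 and 25.5 in KO. For all 3 genes the KO libraries lay above the WT libraries with no overlap.

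Under inhibitor, KO exceeded WT by 2.86 ± 0.18 at Hoxa10 (adjusted p = 1.39e-05), 3.84 ± 0.35 at Hoxa13 (adjusted p = 8.30e-05) and 1.53 ± 0.47 at Hoxa9 (adjusted p = 0.0256), and under TGF-β by 2.97, 3.19 and 1.74. So 3 of 4 tested members were called higher in each, where 28.9% of genes tested were called higher under inhibitor (56.2% in either direction) and 21.2% under TGF-β (40.2%). Hoxa9 and Hoxa13 passed the filter through KO libraries. Hoxa9 was not called under inhibitor without the second WT library (1.19) or the second KO library (1.15), nor under TGF-β without the second WT library (1.26) or the second KO library (1.47). In the reverse direction, Hoxd4 read 5.51 and 8.21, then 4.92 and 6.48 in WT, and had no read in any KO library, too low to be tested. Hoxa7, also too low to be tested, read 5.51 and 4.56, then 4.10 and 7.41 in WT, and 2.01 and 0, then 0 and 0.91 in KO. Hoxa3 went the other way under inhibitor, at 0 and 0.91 in WT and 8.05 and 6.42 in KO. None of the 18 members not tested in PDA cells exceeded 8.21. Rreb1 itself read 1458 and 1501, then 4293 and 4212 in WT, and 2164 and 2195, then 2886 and 2560 in KO, so the KO libraries were higher under inhibitor and lower under TGF-β.

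Cdx2 was abundant in every PDA library, at 2443 and 2651, then 2915 and 2905 in WT, and 2428 and 2438, then 3007 and 2748 in KO. KO and WT libraries were close, and the difference was not called under inhibitor (adjusted p = 0.486, 95% interval -0.24 to 0.11) or TGF-β (adjusted p = 0.873, -0.19 to 0.16). Of the duct markers, Krt19 (57587 to 127867), Krt8 and Krt18 were high, Sox9 read 25.5 to 452 and Onecut1 was at or below 0.93. Of 9 intestinal markers in the table, Cdh17 read 49483 to 78468 and Vil1 2003 to 8370, while Muc2 read 1.82 to 10.1, Lgr5 0 to 27.0 and Fabp2 2.01 to 30.9, and the summed level was 75869 to 89689 in WT and 78101 to 94357 in KO. Most of that summed level was Cdh17, so it hides differences in the other markers. Under inhibitor, 4 of the 8 tested intestinal markers were called higher in KO and 2 lower (28.9% and 27.2% of all genes tested). Isx, an intestinal homeobox gene, read 6.42 to 12.96 in WT and 507 to 723 in KO, while Cdx2 itself was not called between the genotypes. The link between these genes and Cdx2 was not tested.

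TGF-β against inhibitor gave 1 call of 4 members in WT, Hoxa13 (1.11 ± 0.35, adjusted p = 0.0427), where 36.9% of genes tested were called, and 1 of 4 in KO, Cdx2 (0.24 ± 0.07, adjusted p = 0.0366), where 38.7% were called. The WT and KO responses were not called different for any of the 4 (21.8% of genes tested were, 9.71% higher and 12.1% lower), at adjusted p from 0.392 to 0.851. None of the 4 had an unadjusted p under 0.05 (lowest 0.232), and edgeR and DESeq2 on recovered reads also called 0. Neither call was stable. The Hoxa13 call was lost in 14 of 18 alternatives: without the first WT inhibitor library (0.63), either WT TGF-β library (1.07 and 1.14) or any 1 of the 4 KO libraries (1.11 each), among others. The Cdx2 call was lost in 9 of 18, among them without either KO inhibitor library (0.24 each), the first KO TGF-β library (0.18) or either WT TGF-β library (0.24 each).

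In the organoids, Cdx2 was the only member with more than 3 reads in a library. It read 1143 without doxycycline under inhibitor (95% Poisson interval 1082 to 1206) and 1125 under TGF-β (1059 to 1195), and with doxycycline 605 (564 to 648) and 626 (575 to 680). The doxycycline libraries were the lower ones under both treatments, at ratios of 0.529 (0.484 to 0.578) and 0.556 (0.501 to 0.617), while TGF-β against inhibitor gave ratios of 0.985 (0.908 to 1.07) and 1.03 (0.927 to 1.15). These intervals cover counting error only, and with 1 library per condition there is no test. A drop of this size (log2 ratio of -0.8 or lower) was seen in 13.1% of 13443 genes under inhibitor and 12.9% under TGF-β. The other 18 members had 0 to 3 reads in each library, and 3 of them had none in any. All 10 duct markers had reads in every library, at a summed 150022 to 210523, with Krt19 at 17801 to 35175 and Onecut1 at 11.3 to 41.5. Of the intestinal markers, Isx had no read and Fabp2 was at most 2.26. Cdh17 read 287 and 705 without and 2701 and 4127 with doxycycline, while Lgr5 read 2977 and 2861 without and 1280 and 1741 with it, and Muc2 15.5 and 22.1 without and 5.95 and 4.53 with it. The summed intestinal level was 4551 to 5227 without and 8908 to 11849 with doxycycline.

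**Figure D5:**
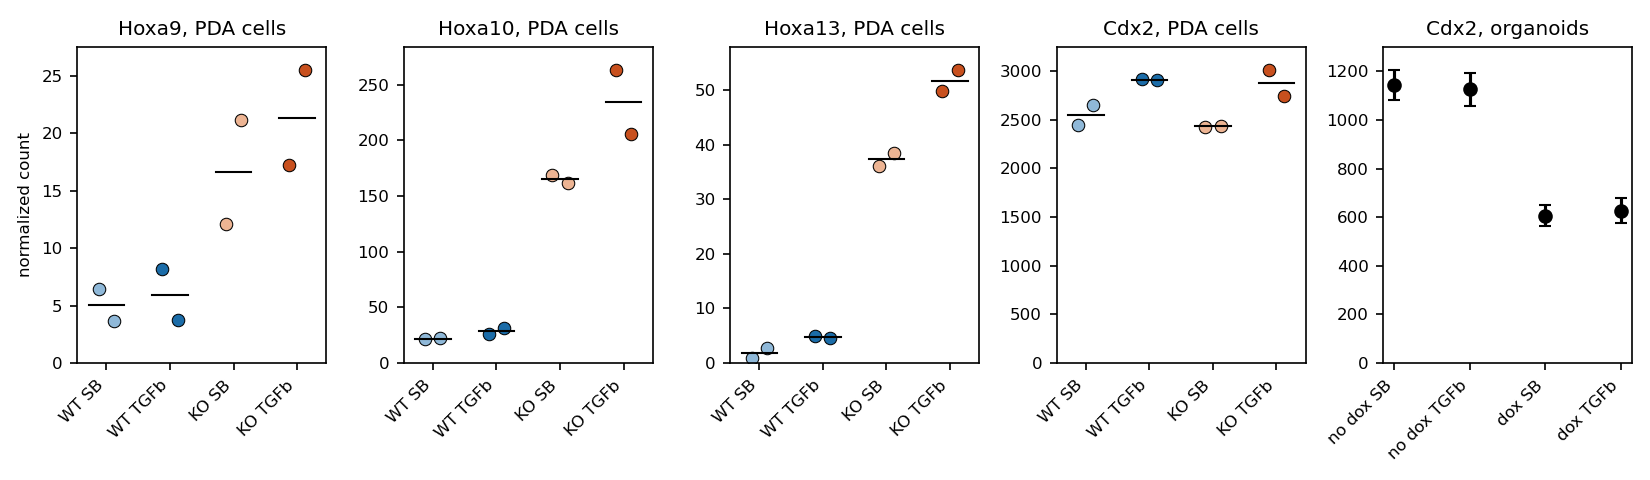
Normalized counts of Hoxa9, Hoxa10, Hoxa13 and Cdx2 in the PDA libraries (points, 2 per group; lines are group means) and of Cdx2 in the 4 organoid libraries (points, with 95% Poisson intervals). Hoxa9, Hoxa10 and Hoxa13 are higher in all 4 KO libraries than in the WT libraries. Cdx2 stays between 2428 and 3007 in PDA cells, and it is lower in both organoid libraries with doxycycline.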

How the data were processed

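The authors deposited, per culture system, a table of normalized read counts per gene, a signal with decimals. Per the submitters' processing notes, the tools named are HTSeq 0.6.1p1, DESeq2 3.4, HOMER, Bowtie2 and FastQC 0.11.5, and the build mm10, with roles not given. Dividing each library's deposited values by its smallest step gave whole reads for 100% of values (tolerance 0.001). These recovered reads gave depths, counting intervals and the edgeR 4.0.16 and DESeq2 1.42.0 alternatives. The main test was limma 3.58.1 (R 4.3.3, trend option) on log2(value + 1), over 4 groups of 2 libraries, for genes at 10 or more in at least 2 of 8 libraries. Tests were two-sided, with Benjamini-Hochberg adjustment over all genes tested, and an adjusted p under 0.05 counted as called. In simulated EB data it recovered 97% of 100 genes changed by 1 and 100% of those changed by 2 on the log2 scale (14989 genes). It also called 11 unchanged genes. Only genes above a minimum mean read count were changed, and the spread between libraries was set, not taken from these data. These rates therefore do not cover members with few reads. Alternatives covered pseudocount, filter, scaling, count models, a replicate term, fewer libraries and each library left out. A member and a gene of another list are counted but not reported here. Every other member was accounted for: those passing the EB filter mainly by library values, the others by their highest value or a bound; other genes came from fixed lists. Members and lists were chosen with earlier results of these data known. Genomic positions and promoters came from RefSeq GRCm38.p6. Chromatin libraries were not analysed here.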

Additional observations from a re-analysis of the deposited data

Results flagged for a closer look

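The change from day 0 to day 4 differed between KO and WT cells for 25 of the members reported here by the interaction test in limma (adjusted p under 0.05). The differences below are KO change minus WT change in log2(normalized count + 1), each from 2 libraries per group. The 3 Cdx genes differed by -9.08 (Cdx2), -3.76 (Cdx4) and -2.48 (Cdx1). In the Hoxb cluster the differences were -4.19 (Hoxb1), -7.76 (Hoxb2), -8.69 (Hoxb3), -5.27 (Hoxb4), -4.76 (Hoxb5), -6.17 (Hoxb6), -2.98 (Hoxb7), -4.90 (Hoxb8) and -1.81 (Hoxb9). In the Hoxa cluster they were -4.94 (Hoxa2), -4.46 (Hoxa3), -4.34 (Hoxa5), -4.75 (Hoxa7), -6.16 (Hoxa10) and -4.51 (Hoxa11). In the Hoxd cluster they were -2.98 (Hoxd1), -2.82 (Hoxd4), -3.83 (Hoxd8), -8.80 (Hoxd9), -3.24 (Hoxd11) and -3.21 (Hoxd13). Hoxc10 alone stood for the Hoxc cluster, at -2.31.

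Among the 7 members whose call was lost in an alternative, Hoxa3 was not called without the second WT day 4 library (-3.70), and Hoxb1, Hoxb5 and Hoxc10 lost their calls with a count model. Hoxb7 was not called without the second WT day 0 library (-1.83), either WT day 4 library (-3.12 and -2.84), the second KO day 0 library (-2.18) or the second KO day 4 library (-2.50). Hoxd4 was not called without the first WT day 0 library (-1.55), either WT day 4 library (-3.27 and -2.38), the first KO day 0 library (-2.19) or the second KO day 4 library (-2.59). Hoxd11 was not called without the second WT day 0 library (-1.84), the second WT day 4 library (-2.77) or the first KO day 0 library (-2.92).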

How the results depend on the processing

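No result changed direction in any alternative run. Counts of called EB members stayed within 1.5 times the main count, except that filtering on a mean of at least 10, which left 19 members to test, gave 17 for the difference between genotypes (main count 26 of 28). Of 119 calls of single members over both tables, 78 held in every alternative and 41 were lost in at least 1; the cause was not tested. In PDA cells, the count for TGF-β in WT (main count 1) was 0 with a pseudocount of 5, no filter, quantile normalization, edgeR, DESeq2, a replicate block or the 4 libraries compared, 2 after rescaling to the same total, and 0 to 2 with a library left out. For TGF-β in KO (main count 1) it was 2 with no filter or after rescaling, 0 with edgeR, DESeq2, a replicate block or the 4 libraries compared, and 0 to 1 with a library left out. Without a filter the count was 1 for the difference between genotypes (main count 0), 8 for KO against WT under inhibitor and 5 under TGF-β (main count 3 each). Rescaling moved the median of all PDA genes by 0.11 (TGF-β in KO) and -0.15 (KO against WT, inhibitor). Replicate numbers gave no common pairing of the libraries: correlations of deviations were -0.03 to 0.09 in EBs and -0.51 to 0.14 in PDA cells. The value of -0.51 was between WT with inhibitor and KO with TGF-β. These groups thus shared a deviation that ran against the replicate numbers, and its source was not tested. With a replicate block, 23, 21, 26, 21 and 20 EB members were called (WT change, KO change, their difference, KO against WT at day 0 and day 4). Values under about 10 rest on few reads, and 2 libraries per group limit every comparison.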
